A study of Mus musculus with 6 samples.

Results

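Transcripts of 9 endocannabinoid genes were examined in mouse hippocampus: Cnr1, Cnrip1, Dagla, Daglb, Mgll, Abhd6, Faah, Napepld and Naaa. They were chosen by name, as the cannabinoid receptor gene, a gene for a receptor partner and the enzyme genes that make and break down its lipid ligands, and each name matched a single row among the 55414 genes of the deposited table. The study profiled total RNA from hippocampus in 3 CerM-treated and 3 vehicle-treated samples. What CerM stands for is not stated in the labels, which also give no dose, duration, strain, age or sex, and the series title places the work in a study of gut bacteria, ceramides and corticosterone-induced depression. Nothing in the labels says that each library came from a separate mouse, so the p-values below measure the spread between these libraries, which may be partly technical. Values are TPM (transcript abundances scaled so that each library has nearly the same total), which are also scaled for transcript length, so levels can be compared between genes as well as between libraries. TPM keeps no read depth, so how many reads each value rests on is not known.

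Endocannabinoids are lipid messengers that neurons release on demand. At hippocampal synapses 2-arachidonoylglycerol (2-AG) is made in the postsynaptic cell by diacylglycerol lipases, travels back across the synapse and lowers transmitter release through the receptor CB1, the product of Cnr1. The signal ends when presynaptic and glial monoacylglycerol lipase, and to a lesser degree ABHD6 in the postsynaptic cell, hydrolyse 2-AG. Anandamide, the other main ligand, belongs to the N-acylethanolamines, which NAPE-PLD can release from membrane phospholipids and which FAAH hydrolyses. NAAA is a lysosomal hydrolase that prefers palmitoylethanolamide and is related in structure to acid ceramidase. In the hippocampus the highest CB1 levels are found on terminals of cholecystokinin basket cells, with lower levels on glutamatergic terminals.

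Markers of hippocampal neurons and of glia were detected in the libraries, which differed in markers of neighbouring tissue. All 5 dentate gyrus markers, all 5 CA1 markers and all 5 CA3 markers averaged at least 1 TPM. So did all 7 neocortex, 5 thalamus, 6 striatum and 9 choroid plexus markers, so that level does not tell regions apart. Vehicle replicate 1 had the highest summed TPM of 7 neocortex markers, 127 against 70.1 to 79.6 in the other 5 libraries, although some of these genes are also expressed in hippocampus. It also had the lowest sums of the dentate gyrus (82.8 against 109 to 133), CA3 (126 against 186 to 229) and oligodendrocyte markers (3829 against 5872 to 6998). Of the dentate gyrus markers, Calb1 went the other way, at 52.8 TPM there against 41.9 to 50.6, and each of the others was lowest there. Choroid plexus markers summed to 9395, 11047 and 15850 TPM in CerM replicates 1 and 3 and vehicle replicate 3, and to between 256 and 312 in the other 3 libraries. Fat cell markers summed to 843 TPM in CerM replicate 3 and to between 0.950 and 2.53 elsewhere, with Cfd at 409 TPM there and listed at 0 in the other 5. Sums of the remaining lists overlapped between the groups, at 279 to 340 TPM for CA1, 26.9 to 58.1 for thalamus, 77.4 to 154 for striatum, 163 to 200 for endothelium, 43.6 to 98.6 for meninges and 810 to 1327 for red blood cells.

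Sequences before the transcription start are shown for Cnr1, Faah, Naaa and Napepld, because these genes shared their lowest library, as described further on, and have an entry in the RefSeq promoter table. The table is of the mouse build GRCm38.p6, which is older than the GRCm39 named in the submitters' processing notes, and it served only for these sequences. It held 12 starts for 8 of the 9 genes and none for Dagla. The windows are the 250 bases before a start, at chr4:33924014-33924263 on the plus strand for Cnr1 (the most upstream of its 3 starts), chr4:116017927-116018174 on the minus strand for Faah, chr5:92278182-92278431 on the minus strand for Naaa and chr5:21701623-21701872 on the minus strand for Napepld. For Faah the last 2 bases before the start are left out, since they lie in an annotated exon. None of the 4 stretches overlaps an exon of the GENCODE M21 annotation of the same build. Each is written 5′ to 3′ on the strand of its gene, and capitals mark matches to GGGCGG, a GC box of the kind Sp1 family factors bind, on either strand (CCGCCC on the other).
Cnr1: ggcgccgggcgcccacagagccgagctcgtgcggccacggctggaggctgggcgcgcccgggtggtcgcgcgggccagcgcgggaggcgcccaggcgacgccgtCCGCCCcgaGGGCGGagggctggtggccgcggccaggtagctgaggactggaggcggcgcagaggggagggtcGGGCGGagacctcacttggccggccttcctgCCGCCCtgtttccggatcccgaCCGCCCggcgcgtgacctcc
Faah: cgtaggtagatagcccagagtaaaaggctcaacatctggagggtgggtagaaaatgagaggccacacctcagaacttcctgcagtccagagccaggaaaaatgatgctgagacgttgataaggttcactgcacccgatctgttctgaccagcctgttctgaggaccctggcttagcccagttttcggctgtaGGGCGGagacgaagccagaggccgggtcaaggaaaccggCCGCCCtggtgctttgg
Naaa: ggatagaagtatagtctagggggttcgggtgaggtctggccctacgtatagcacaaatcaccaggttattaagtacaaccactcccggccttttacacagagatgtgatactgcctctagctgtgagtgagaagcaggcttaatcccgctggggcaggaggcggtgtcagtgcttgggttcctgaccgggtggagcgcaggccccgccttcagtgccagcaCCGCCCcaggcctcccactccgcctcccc
Napepld: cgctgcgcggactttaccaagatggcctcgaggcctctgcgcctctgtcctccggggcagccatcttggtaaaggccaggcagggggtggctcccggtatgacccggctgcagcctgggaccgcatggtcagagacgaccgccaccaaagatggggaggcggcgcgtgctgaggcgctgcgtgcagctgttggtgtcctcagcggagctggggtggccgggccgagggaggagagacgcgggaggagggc

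Cnr1 held 5 GC boxes in that window, Faah 2, Naaa 1 and Napepld none. GGGCGG stood on either strand in 6 of the 12 windows of these genes, and in 32.7% of the 32851 windows of the same length in the table. The window before the most upstream Cnr1 start was 79.2% G or C, that of Napepld 69.6%, that of Naaa 59.2% and that of Faah 55.6%, where the median window of the table had 52.4%. A TATA box (TATAAA, 12.4% of all windows) and a cyclic AMP response element (TGACGTCA, 1.55%) were found in 0 of the 12 windows. The full palindromic glucocorticoid response element (AGAACA and TGTTCT with 3 bases between), searched because the study concerns corticosterone, was also found in 0 of the 12, and in 3 of all 32851 windows. An E-box (CACGTG, 6.02% of all windows) stood in 1 window each of Cnr1 and Mgll, in both cases within annotated exon bases. The Cnr1 match is before another start than the one shown. Counts over the 12 windows include exon bases. These motifs share no letters in the 12 windows, and a match is a string of letters only.

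All 9 genes were detected in every library and passed the filter of a mean of at least 1 TPM, as did 14916 genes in all. Their mean levels over the 6 libraries ran from 13.8 TPM for Daglb to 98.2 TPM for Cnrip1, which placed them between the 48.9 and 89.9 percentiles of the tested genes. The order from high to low was Cnrip1, Mgll, Faah, Cnr1, Abhd6, Dagla, Naaa, Napepld and Daglb. Of the 8 pairs of neighbours in this order, 4 kept the same order in all 6 libraries: Cnrip1 lay 1.27-fold above Mgll, Mgll 1.24-fold above Faah, Faah 1.22-fold above Cnr1 and Naaa 2.76-fold above Napepld (geometric means). For each of these 4 the exact sign-flip permutation test over 6 libraries gave the smallest p it can, 0.0312 two-sided, or 0.0625 after adjustment over the 8 pairs. No pair was therefore below 0.05 after adjustment. The pairs were also formed by ordering the genes on these same libraries, so the test gives no independent support for the order. In the other 4 pairs the order changed between libraries. Cnr1 and Abhd6 differed by 0.11 ± 0.12 in log2 TPM (mean ± SD of the within-library difference), Abhd6 and Dagla by 0.22 ± 0.34, Dagla and Naaa by 0.03 ± 0.20, and Napepld and Daglb by 0.06 ± 0.13. The plot of TPM by gene and library shows the same order.

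**Figure D1:**
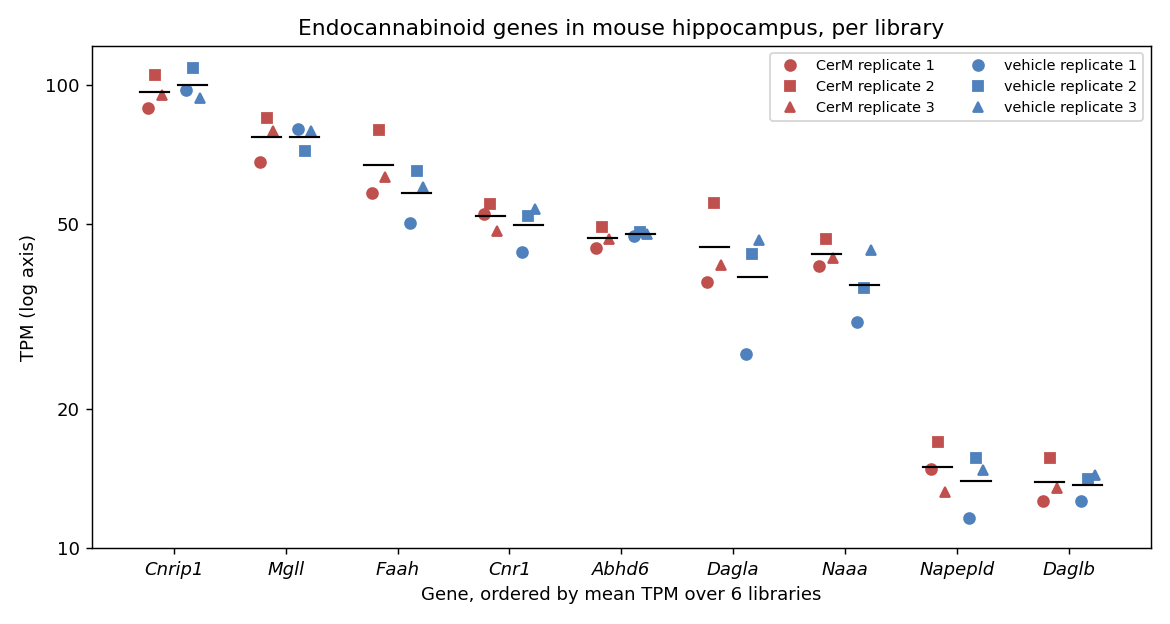
TPM of the 9 endocannabinoid genes (vertical log axis) in each of the 6 libraries, with genes ordered by their mean; red symbols are CerM, blue are vehicle, the symbol shape gives the replicate and the black bar is the mean of 3. The red and blue symbols overlap for every gene, and the lowest symbol of Dagla, at 26.2 TPM, is vehicle replicate 1.

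None of the 9 genes differed between CerM and vehicle hippocampus beyond the spread between libraries. Limma, which fitted log2(TPM + 1) over all 14916 tested genes with Benjamini-Hochberg adjustment, called 0 of the 9 at an adjusted p below 0.05, and 0% of all tested genes. At an unadjusted p below 0.05 it again gave 0 of the 9, where 2.70% of all tested genes passed. The groups overlapped for each of the 9, whereas 7.30% of all tested genes had groups that did not overlap. Of the 9 log2 fold changes 6 lay above 0 and 3 below, with a median of 0.07 and a range from −0.05 to 0.23, beside a median of 0.03 and 58.8% above 0 over all tested genes. Under other scalings of the libraries the number above 0 was 5 to 7 of the 9. The 95% confidence interval stayed within a 2-fold change for 9 of 9 genes and within a 1.5-fold change for 8 of 9, the exception being Dagla. Over all tested genes 63.7% had an interval within 1.5-fold. In bulk tissue, fewer cells of a type and less RNA per cell cannot be told apart.

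Cnr1, the gene of the receptor CB1, had nearly the same level in both groups. It stood at 52.7, 55.2 and 48.4 TPM in CerM replicates 1 to 3 and at 43.6, 52.1 and 53.9 in vehicle replicates 1 to 3. The lowest library was vehicle replicate 1, and the other 5 lay between 48.4 and 55.2 TPM. The log2 fold change was 0.07 ± 0.11 (SE), with a 95% confidence interval of −0.20 to 0.33 and a limma adjusted p of 0.989, and it was −0.03 without vehicle replicate 1. Markers of the cholecystokinin interneurons that carry much of hippocampal CB1 (Cck, Htr3a, Vip, Slc17a8 and Npas1, of which neocortex also expresses several) summed to 415, 355 and 321 TPM in CerM and to 511, 394 and 321 in vehicle. Most of that sum is Cck, which other neurons also express. Cck and Vip were highest in vehicle replicate 1, Htr3a was lowest there, and Npas1 and Slc17a8 were highest in CerM replicates 2 and 3. The part of these interneurons in the Cnr1 level was not tested.

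Cnrip1 encodes a small protein that binds the tail of CB1 and can modulate its activity. Its TPM was 89.3, 105 and 94.9 in CerM and 97.7, 109 and 93.7 in vehicle. It was the single gene of the 9 whose highest library was a vehicle library, replicate 2. Its log2 fold change was −0.05 ± 0.10, with an interval of −0.29 to 0.18 and a limma adjusted p of 0.989. Cnrip1 transcripts outnumbered those of Cnr1 in each library, by 1.69-fold to 2.24-fold, with the highest ratio in vehicle replicate 1.

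Dagla, the lipase gene behind most 2-AG made at adult synapses, varied more between libraries than the other 8 genes. Its TPM was 37.5, 55.6 and 40.8 in CerM and 26.2, 43.2 and 46.2 in vehicle. The highest and lowest libraries, CerM replicate 2 and vehicle replicate 1, differed 2.12-fold, and the remaining CerM libraries lay below the remaining vehicle libraries. CerM exceeded vehicle by 0.23 ± 0.24 in log2, with an interval of −0.33 to 0.78 and a limma adjusted p of 0.989. With single libraries left out it ran from −0.02 (without vehicle replicate 1) to 0.38 (without vehicle replicate 3). It was 0.04 with neocortex markers as a covariate and 0.28 with adipocyte markers. The adipocyte markers were high in CerM replicate 3 alone, so that covariate nearly repeats leaving out this library, which also gave 0.28. The SD of log2(TPM + 1) over the 6 libraries was 0.35, larger than that of 84.6% of tested genes, against 0.19 for the median gene.

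Daglb, a lipase gene better known for its part in microglia and macrophages, was lower and steadier. It stood at 12.6, 15.7 and 13.5 TPM in CerM and at 12.7, 14.1 and 14.4 in vehicle. Between the groups the log2 fold change was 0.02 ± 0.12, with an interval of −0.27 to 0.31. Dagla exceeded Daglb 2.07-fold in vehicle replicate 1 and between 2.97-fold and 3.54-fold in the other 5 libraries. Microglia markers summed to between 240 and 293 TPM and were highest in CerM replicate 2, as Daglb was.

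The genes of 2-AG breakdown varied little. Mgll, which encodes monoacylglycerol lipase, stood at 68.2, 84.7 and 79.4 TPM in CerM and at 80.3, 72.1 and 79.4 in vehicle, with CerM libraries at both extremes. Its log2 fold change was −0.00 ± 0.11, with an interval of −0.25 to 0.25 and a limma adjusted p of 0.999. Mgll is abundant in fat tissue, and CerM replicate 3, where Mgll stood at 79.4 TPM, is the library with 843 TPM of fat cell markers. Without that library the log2 fold change of Mgll was −0.02.

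Abhd6, a membrane-bound hydrolase gene, stood at 44.6, 49.3 and 46.6 TPM in CerM and at 47.2, 48.2 and 47.7 in vehicle. All 6 libraries lay within 1.11-fold of each other. Its SD of log2(TPM + 1) was 0.05, and 0.697% of tested genes had a smaller one. Its log2 fold change was −0.03 ± 0.09, with an interval of −0.23 to 0.18. Mgll exceeded Abhd6 by 1.49-fold to 1.72-fold in each library.

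Faah, the gene of the main anandamide hydrolase, stood at 58.5, 80.0 and 63.2 TPM in CerM and at 50.4, 65.2 and 60.2 in vehicle. CerM replicate 2 was the highest library and vehicle replicate 1 the lowest, and the 4 others lay between 58.5 and 65.2. The log2 fold change was 0.19 ± 0.15, with an interval of −0.16 to 0.54 and a limma adjusted p of 0.989. Leaving out single libraries gave values from 0.06 (without CerM replicate 2) and 0.09 (without vehicle replicate 1) to 0.27 (without vehicle replicate 2) and 0.28 (without CerM replicate 1). It was 0.10 with neocortex markers as a covariate and 0.23 with adipocyte or with choroid plexus markers. Without CerM replicate 3, the library that the adipocyte covariate nearly marks, it was also 0.23.

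Napepld, the gene of the phospholipase that releases N-acylethanolamines, was among the lowest of the set. It stood at 14.8, 16.9 and 13.2 TPM in CerM and at 11.6, 15.7 and 14.7 in vehicle. For Napepld the log2 fold change was 0.10 ± 0.15, with an interval of −0.26 to 0.45, and it was −0.03 without vehicle replicate 1. Faah exceeded Napepld 3.94-fold to 4.78-fold, and the groups overlapped in that ratio as well.

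Naaa had the smallest unadjusted p of the 9, 0.151 by limma (adjusted p 0.989). It stood at 40.7, 46.4 and 42.3 TPM in CerM and at 30.8, 36.4 and 43.9 in vehicle. Vehicle replicate 3 lay above 2 of the 3 CerM libraries, and the other vehicle libraries lay below all of them. The log2 fold change was 0.23 ± 0.14, with an interval of −0.10 to 0.56. Without vehicle replicate 3 it was 0.35, at an unadjusted p of 0.0302 and an adjusted p of 0.748 by limma. In that setting 6.48% of all tested genes had a limma unadjusted p below 0.05, beside 2.70% with all libraries. Without vehicle replicate 1 the log2 fold change of Naaa was 0.10. Vehicle replicate 3 had the most choroid plexus transcripts, and with those markers as a covariate the value was 0.18.

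**Figure D2:**
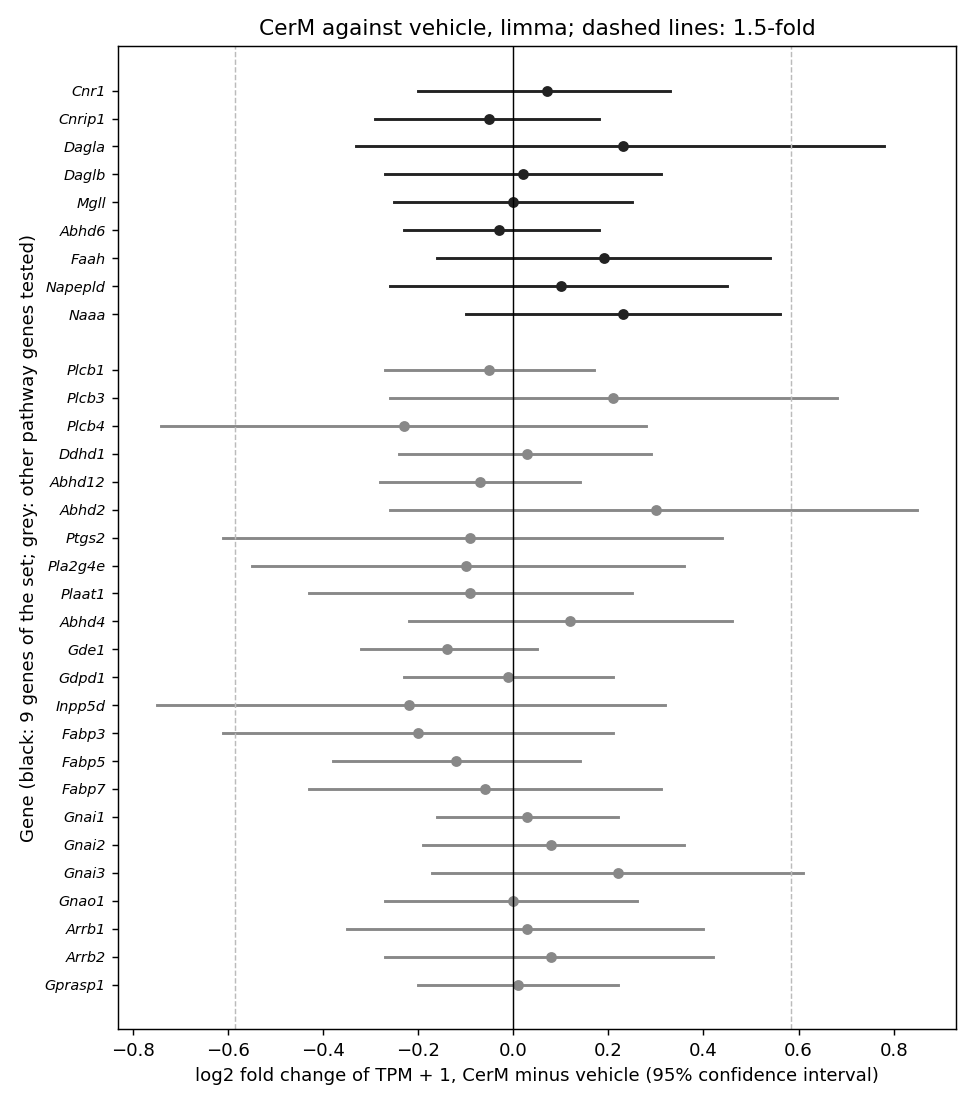
log2 fold change of TPM + 1, CerM minus vehicle (horizontal axis), with the 95% confidence interval of the limma fit, for the 9 endocannabinoid genes in black and 23 other tested genes of the pathway in grey; dashed lines mark a 1.5-fold change. Each interval spans 0, and among the black ones that of Dagla, −0.33 to 0.78, is the widest.

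Ratios between genes of the set did not separate the groups. A single scaling factor per library leaves such ratios unchanged, whereas quantile scaling can change them. Dagla over Mgll, the main synthetic over the main degrading enzyme of 2-AG, was 0.550, 0.656 and 0.514 in CerM and 0.326, 0.599 and 0.582 in vehicle. Vehicle replicate 1 stood apart at the low end, and the other 5 libraries were mixed. Faah over Naaa ran from 1.44 to 1.73 in CerM and from 1.37 to 1.79 in vehicle. For each of the 6 ratios examined the groups overlapped, as the plot of ratios by library shows.

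**Figure D3:**
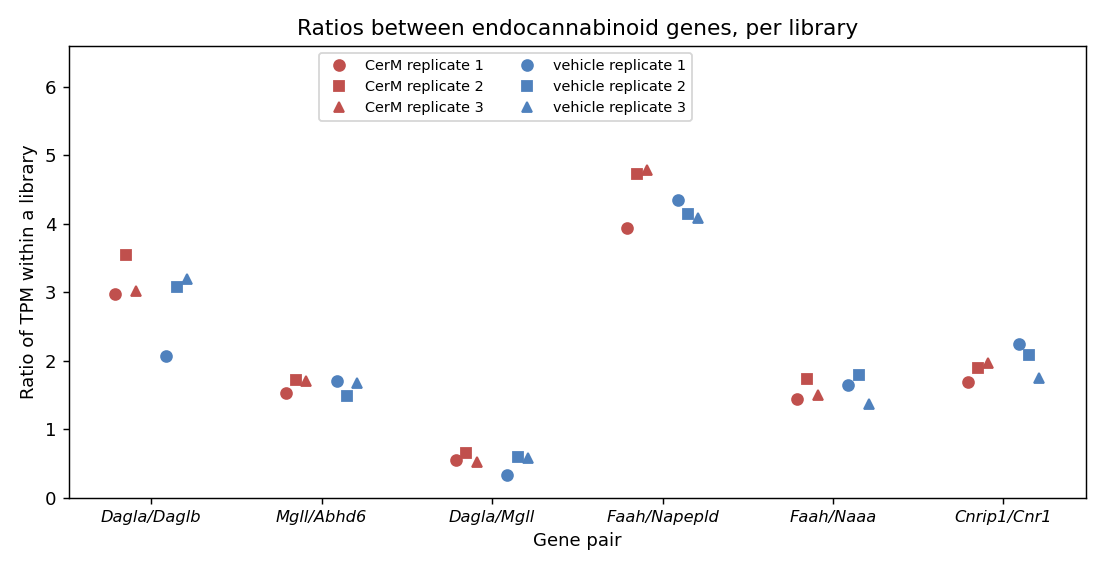
Ratio of TPM between 2 endocannabinoid genes within each library (vertical axis) for 6 gene pairs; red symbols are CerM, blue are vehicle and the symbol shape gives the replicate. Red and blue overlap for each pair, and vehicle replicate 1 (blue circle) is the lowest for Dagla over Daglb, 2.07, and for Dagla over Mgll, 0.326.

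Of the 9 genes, 5 shared their lowest library. Cnr1, Dagla, Faah, Napepld and Naaa had their lowest value in vehicle replicate 1, where 32.6% of tested genes were also lowest. These 5 remained the lowest there under quantile scaling, median-ratio scaling and TPM without mitochondrial genes, which added Daglb. The share of all tested genes lowest in that library was then 25.2%, 26.2% and 32.2%. Across the 9 genes the median deviation of log2(TPM + 1) from the mean of 6 libraries was −0.22 in vehicle replicate 1, beside −0.07 over all tested genes. Daglb, Mgll, Abhd6 and Cnrip1 were lowest in CerM replicate 1.

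The high end depended on the scaling. As deposited, 8 of the 9 genes, all but Cnrip1, were highest in CerM replicate 2, where 40.9% of all tested genes were highest too. Under median-ratio scaling these were 3 (Dagla, Daglb and Faah), beside 22.4% of tested genes, and under quantile scaling 2 (Dagla and Faah), beside 25.1%. In TPM without mitochondrial genes they were 6, beside 34.5%. CerM replicate 2 also had the highest summed TPM of the excitatory neuron (3940 against 3084 to 3691), astrocyte (1175 against 735 to 1044) and oligodendrocyte markers (6998 against 3829 to 6677). Vehicle replicate 1 had the lowest sum of each of these 3 lists. Gene by gene, 5 of 7 astrocyte and 5 of 7 oligodendrocyte markers were highest in CerM replicate 2 and lowest in vehicle replicate 1, as was 1 of 5 excitatory neuron markers (Camk2a). Of all tested genes 18.1% had that joint pattern as deposited. The share was 10.8% under quantile scaling, 9.66% under median-ratio scaling and 16.1% in TPM without mitochondrial genes. The marker sums and counts are given for TPM as deposited only. The part of tissue composition in the order of the endocannabinoid genes was not tested.

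**Figure D4:**
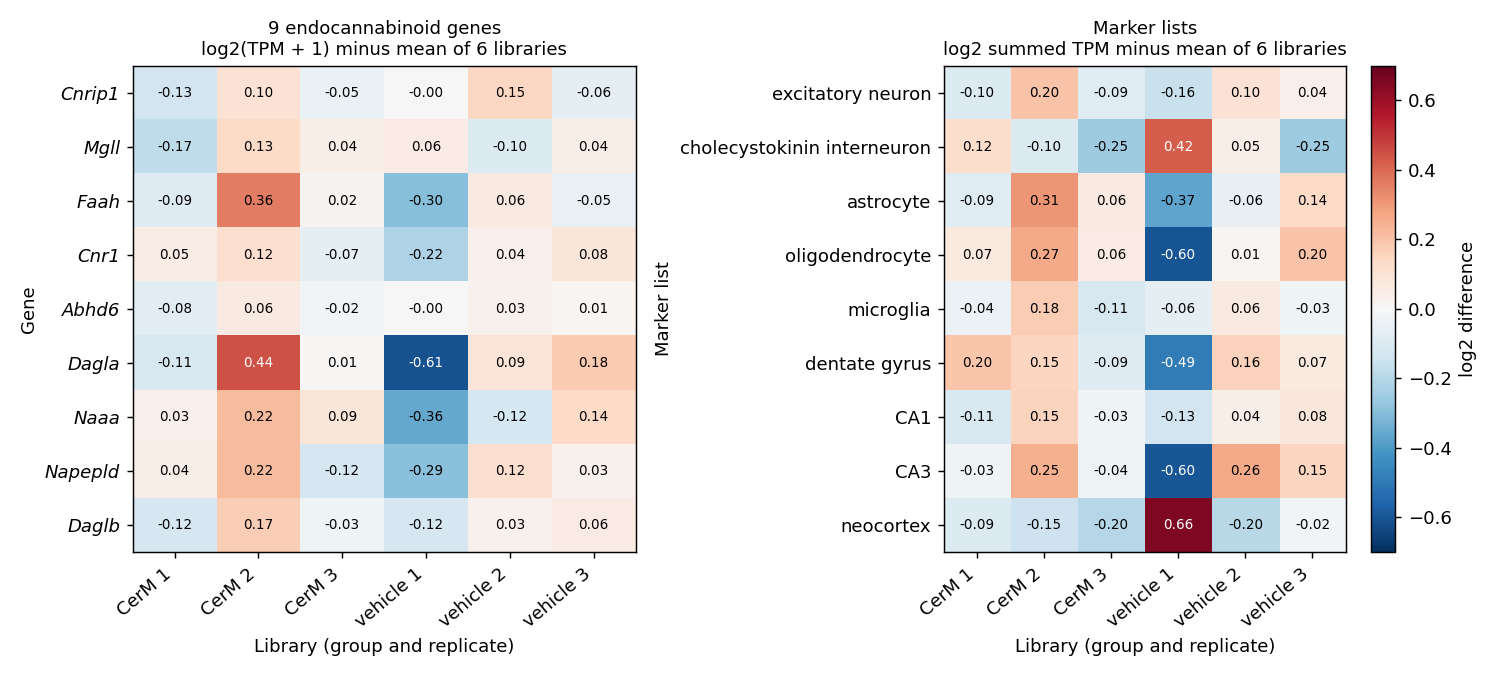
Left, deviation of each endocannabinoid gene's log2(TPM + 1) from its average over the 6 libraries; right, log2 of the summed TPM of 9 marker lists minus the mean over the libraries; columns are libraries and the color scale is in log2 units. The vehicle 1 column is lowest for Dagla (−0.61) and high for neocortex markers, and the CerM 2 column is above 0 for all 9 genes.

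The genes whose levels followed Cnr1 most closely over the 6 libraries were Plppr4, Plppr2, Prps1, Gstm7 and Rhob, among 8466 genes with a mean of at least 10 TPM. As a description of 6 libraries that share these 2 treatments, their Pearson coefficients of log2(TPM + 1) with Cnr1 were 0.992, 0.989, 0.988, 0.987 and 0.987. Being the top of so many genes, they are high by choice. Gstm7 belongs to a family of near-identical genes, between which reads may have been split. All 5 were lowest in vehicle replicate 1 and highest in CerM replicate 2, like Cnr1, with Plppr4, a synaptic phospholipid phosphatase-related gene, at 63.6 and 105 TPM there. Among the other 8 genes of the set, Napepld (0.949, place 129) and Dagla (0.901, place 443) followed Cnr1 most closely, and Mgll (−0.119) did not. For Mgll the closest were Fam160b2, Maged2, Znfx1, Crat and Tacc1, at 0.993, 0.991, 0.990, 0.981 and 0.981. These were lowest in CerM replicate 1, as Mgll was.

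Of 32 other genes of the pathway, 23 had a mean of at least 1 TPM and could be tested. Limma called 0 of the 23, and 0 passed an unadjusted p below 0.05. Of the 23, 10 lay above 0 and 13 below (median −0.01), and 7 to 12 lay above 0 under other scalings. The 6 further receptors that respond to cannabinoids or N-acylethanolamines were all under 1 TPM. Cnr2, the receptor gene CB2 of immune cells, was between 0.02 and 0.10 TPM, and Gpr55 between 0.19 and 0.41. Trpv1, an ion channel gene whose product anandamide can open, was at 0.02, 0.23 and 0.17 TPM in CerM and at 0.04, 0.00 and 0.00 in vehicle. Ppara, the nuclear receptor gene for palmitoylethanolamide, was between 0.27 and 0.56 TPM.

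Among 7 further genes of 2-AG synthesis and breakdown 3 lay above 0 and 4 below (median −0.05). Abhd12, a hydrolase gene known for lysophosphatidylserine that also acts on 2-AG, was more abundant than each of the 9 genes, at 293 ± 27.8 TPM under CerM and 307 ± 7.27 under vehicle (mean ± SD, 3 libraries each, here and in what follows). Plcb1, the phospholipase C gene that supplies diacylglycerol downstream of group I metabotropic receptors, was at 42.2 ± 2.42 and 43.7 ± 1.76. Plcb3, a related phospholipase C gene, was at 8.20 ± 1.86 and 6.89 ± 1.32. Ptgs2, the cyclooxygenase gene that can oxidize endocannabinoids, was at 8.23 ± 1.55 and 8.93 ± 2.51. Abhd2, a serine hydrolase gene that acts on 2-AG in sperm, had the largest value of the 23, with 28.6, 26.5 and 30.4 TPM in CerM libraries and 18.0, 19.2 and 35.0 in vehicle. Its log2 fold change was 0.30 ± 0.24, with an interval of −0.26 to 0.85. Without vehicle replicate 3 it was 0.59, at an unadjusted p of 0.00235 and an adjusted p of 0.748 by limma. In that setting 6.48% of all tested genes had a limma unadjusted p below 0.05, beside 2.70% with all libraries. Without vehicle replicate 1 the log2 fold change of Abhd2 was 0.13.

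Of 9 further genes of N-acylethanolamine metabolism 6 were tested, of which 1 lay above 0 and 5 below (median −0.09). Gde1, a glycerophosphodiesterase gene of the route that bypasses NAPE-PLD, was the one gene of the 23 whose groups did not overlap, where 4.04% of all tested genes were lower in CerM without overlap. It stood at 259, 282 and 258 TPM in CerM and at 301, 282 and 295 in vehicle, and the nearest libraries, both numbered 2, were 282.30 and 282.37. Under quantile scaling its groups overlapped, while under median-ratio scaling and in TPM without mitochondrial genes they did not. With single libraries left out, 1 to 6 of the 23 genes had groups without overlap, where 12.6% to 23.8% of all tested genes did. The log2 fold change of Gde1 was −0.14 ± 0.08, with an interval of −0.32 to 0.05 and a limma adjusted p of 0.989. Abhd4, the lipase gene that acts before Gde1 on that route, was at 52.9 ± 5.47 and 48.9 ± 8.58 TPM. Pla2g4e, which encodes the calcium-dependent N-acyltransferase that makes the precursor phospholipid, was near the limit of the filter at 1.72 ± 0.39 and 1.89 ± 0.157 TPM.

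All 3 genes for fatty acid binding proteins that can carry anandamide lay below 0 (median −0.12). Fabp5 averaged 241 ± 24.5 TPM with CerM and 261 ± 25.0 with vehicle, and Fabp7, an astrocyte and progenitor gene, at 42.8 ± 9.25 and 44.0 ± 2.30. Fabp3 was at 145, 158 and 154 TPM in CerM and 235, 159 and 145 in vehicle, so vehicle replicate 1 alone lay apart, and its log2 fold change of −0.20 became 0.01 without that library. Of 7 genes for G proteins and other partners of CB1, 6 lay above 0 (median 0.03), and 4 did under median-ratio scaling. Gnao1, the most abundant of them and the main inhibitory-class G protein gene of brain, was at 338 ± 49.2 and 337 ± 12.1 TPM. Gnai3 was at 15.4 ± 1.64 and 13.2 ± 2.65.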

How the data were processed

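RNA from mouse hippocampus was sequenced after TRIzol extraction, DNase I treatment and an Illumina TruSeq library preparation, per the labels' protocols. The authors deposited TPM values with 2 decimals, and the submitters' processing notes name HISAT2, StringTie, RSEM and build GRCm39 without versions or roles. Column totals were 993379 to 995403 TPM. Groups and replicate numbers were taken from the sample titles, and all 6 columns differed from each other.

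The 14916 genes averaging 1 TPM or more were tested with limma 3.58.1 in R 4.3.3 on log2(TPM + 1), with a variance trend, two-sided, and Benjamini-Hochberg adjustment over all of them at 0.05. Fold changes on this scale understate those of low genes. Errors are SE of the fit or SD over 3 libraries. On simulated data with 14916 genes and this design, limma called 59 of 100 genes changed 2-fold and 91 of 100 changed 4-fold. Of its 161 calls 11 were unchanged genes. The simulated noise was independent between genes and 200 genes were changed, whereas the real libraries share patterns across many genes. These figures therefore do not give the power in the real libraries. The members and lists were chosen with earlier results of these data known. Named genes were the 9 members, 13 fixed pathway genes with up to 4 more of the smallest p, and the 5 genes most like Cnr1 and Mgll. Marker lists numbered 17, of which 1 is not reported here. Alternatives changed the pseudocount (0.1, 0.5), the minimum (none, 5 TPM), the scaling, the variance model, sample weights, marker covariates and the replicate block, and left libraries out. The choroid plexus covariate and the scaling of the library order were chosen after seeing the data. Tables were made with Python 3.11.15, pandas 2.3.3 and numpy 2.4.6.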

Additional observations from a re-analysis of the deposited data

How the results depend on the processing

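No endocannabinoid gene and no other pathway gene was called by limma under any of the 21 alternatives, and each adjusted p of the 9 genes lay between 0.274 and 1.00. Over all tested genes the count of 0 became 9 with adipocyte markers as a covariate, 1 without vehicle replicate 1 and CerM replicate 3 together, and 0 to 7 with single libraries left out. The adipocyte covariate nearly repeats leaving out CerM replicate 3, which gave 7. The count of endocannabinoid genes with groups that do not overlap was 0 to 1 with single libraries left out (Abhd6 without CerM replicate 2, Naaa without vehicle replicate 3), where 18.8% and 23.8% of all tested genes did not overlap. The count highest in CerM replicate 2 went from 8 to 2 under quantile scaling, 3 under median-ratio scaling and 6 in TPM without mitochondrial genes. Sample weights raised the genes at an unadjusted p below 0.05 to 1 of the 9 (Cnrip1, −0.17) and 6 of the 23, where 18.1% of all tested genes passed.

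Of 189 alternative values for the 9 genes, 26 had the other sign, and none of these was for Naaa. The 189 include settings that cannot move these fold changes: the variance model, the minimum, which all 9 genes passed, and the replicate block. The share of reversals is therefore lower than among the settings that can. The cause of the reversals was not tested. With sample weights the log2 fold change was −0.04 for Cnr1, −0.03 for Dagla, −0.05 for Daglb, 0.07 for Mgll, −0.00 for Faah, −0.12 for Napepld and 0.06 for Fabp7. Under quantile scaling it was −0.03 for Daglb, 0.02 for Mgll and 0.06 for Gnao1, under median-ratio scaling −0.01 for Daglb, and in TPM without mitochondrial genes 0.01 for Mgll and 0.01 for Gnao1. With neocortex markers as a covariate it was −0.02 for Daglb and 0.02 for Mgll, with choroid plexus markers 0.02 for Mgll and 0.03 for Gnao1, and with adipocyte markers 0.06 for Gnao1. Without vehicle replicate 1 and CerM replicate 3 it was −0.02 for Daglb, 0.01 for Mgll, 0.02 for Plcb1 and 0.02 for Gnao1. With single libraries left out it ran from −0.03 to 0.12 for Cnr1, −0.12 to 0.01 for Cnrip1, −0.02 to 0.38 for Dagla, −0.06 to 0.08 for Daglb, −0.07 to 0.09 for Mgll, −0.06 to 0.01 for Abhd6, −0.03 to 0.18 for Napepld, −0.31 to 0.07 for Ptgs2, −0.17 to 0.03 for Pla2g4e, −0.00 to 0.25 for Abhd4, −0.21 to 0.10 for Fabp7, −0.34 to 0.01 for Fabp3 and −0.12 to 0.05 for Gnao1.

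With the replicate number as a block, limma again called 0 genes. The block cannot change the log2 fold changes, because each number holds a CerM and a vehicle library. Deviations of same-numbered libraries from their group means correlated at 0.01, 0.20 and 0.22 across genes, and 5 of 6 libraries correlated best with their own number. Deviations sum to 0 within each group, so these matches depend on each other and cannot decide whether libraries were paired. Choroid plexus sums were alike in the libraries numbered 2 (312 and 267 TPM) and 3 (11047 and 15850). They were unlike in those numbered 1 (9395 and 256). The part of that tissue in the correlations was not tested. The labels state no pairing and the pair numbered 1 was not above 0.1, and the block is therefore given as an alternative. The intervals come from each gene's spread over 3 libraries per group, which limma combines with a variance trend fitted over all tested genes. For a steady gene such as Abhd6 they are therefore not a measure of its own spread alone. The read depth behind them is not known.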
